A study of Mus musculus with 6 samples.

Results

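Laminins are the cross-shaped glycoproteins from which every basement membrane is built. Each secreted molecule is a trimer of 1 alpha, 1 beta and 1 gamma chain, the chains being products of separate genes, and the alpha chain sets which receptor the trimer binds. In the mammary gland the basement membrane lies under the basal (myoepithelial) layer, which makes much of it, while fibroblasts, vessels and nerves contribute their own chains. Of the 54418 genes in the count table, 9 are described here as the laminin chains: the alpha chain genes Lama1, Lama2, Lama3, Lama4 and Lama5, the beta chain genes Lamb1, Lamb2 and Lamb3, and the gamma chain gene Lamc1. They were chosen by name from the gene identifiers, and all 9 passed the filter on low counts, with between 1303 and 34312 counts in a library.

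The libraries came from mammary cells of 4-week-old C57BL/6 females, 3 wild-type (Glis2+/+, labelled WT) and 3 homozygous for a germline knockout of Glis2 (Glis2-/-, labelled KO), with 1 library per mouse and no other allele or agent named. GLIS2 is a zinc finger protein of the GLI-similar family that can repress transcription, and the study asked how its loss alters gene expression in mammary epithelial cells. Before sorting, the dissociated cells were stained for TER-119, CD31 and CD45, which mark red blood, endothelial and white blood cells, and for CD24 and CD49f. CD49f is the product of Itga6, itself a laminin-binding integrin subunit, so its transcript is not independent of the sort. Because the knockout is germline, all cells of the animal carry it, stroma included.

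Library totals lay between 24996524 and 31393917 counts. Glis2 had 671, 663 and 510 counts in Glis2+/+ replicates 1 to 3 and 252, 509 and 510 counts in Glis2-/- replicates 1 to 3, so that after scaling it was lower in each Glis2-/- library (log2 fold change -0.57, SE 0.22, adjusted p = 0.906 in edgeR) but not absent. Counts over a whole gene do not show whether the deleted part was read, and the genotypes rest on the labels. Epithelial markers were abundant, with summed scaled counts (CPM, counts per 1e6 of the TMM-scaled library size) of 10 basal markers between 4683 and 7696 and of 10 luminal markers between 4086 and 7236. Markers of other cells were present too: the summed CPM of 7 fibroblast markers lay between 2306 and 7768 and that of 8 endothelial markers between 173.6 and 810.6, and none of these 15 genes was at 0 in any library. Glis2+/+ replicate 2 and Glis2-/- replicate 2 had the lowest sums of both lists.

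No laminin chain differed between the genotypes beyond the spread between libraries. In edgeR's quasi-likelihood test over all 21236 genes that passed the filter, 0 of the 9 genes had both an adjusted p no higher than 0.05 and a log2 fold change of 0.58 or more in size, where 0% of all genes tested did. An unadjusted p under 0.05 was obtained for 0 of the 9, against 5.32% of all genes. DESeq2 with apeglm shrinkage also called 0 of the 9, against 0.165% of the genes it tested. Values of the 2 genotypes overlapped for each of the 9 chains, whereas all Glis2-/- libraries lay above all Glis2+/+ libraries for 6.23% of the genes tested and below them for 5.5%. In direction, 4 chains had higher and 5 lower fitted values in Glis2-/- cells, and the median log2 fold change was -0.00086, beside 0.011 over all genes tested.

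**Figure D1:**
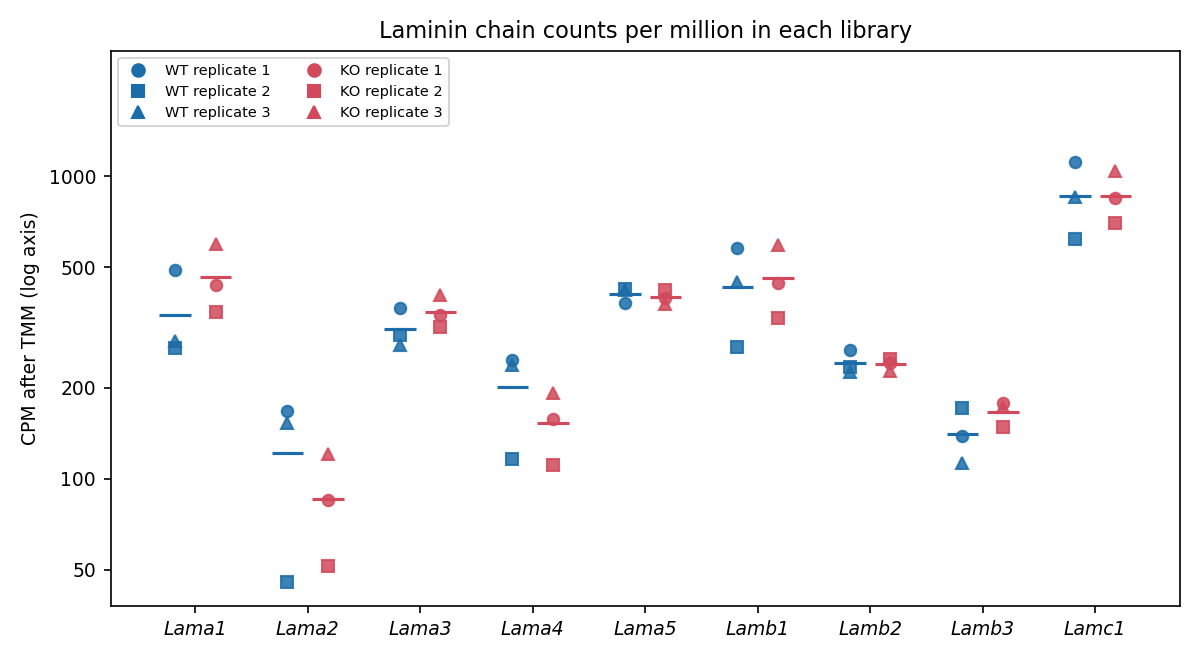
CPM of the 9 laminin chains (log axis) in each of the 6 libraries, with Glis2+/+ (WT) libraries in blue, Glis2-/- (KO) libraries in red, 1 symbol shape per replicate number and a bar at the mean of 3. Lama5 and Lamb2 are nearly level over the libraries, Lama2 spreads from 45.6 to 167 CPM, and the genotypes overlap for every chain.

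Neither chain of the hemidesmosomal laminin separated the genotypes. Lama3 encodes the alpha chain, and Lamb3 the beta chain, of the laminin that anchors basal epithelial cells through the integrin of the Itga6 and Itgb4 products. Lama3 (ENSMUSG00000024421, chromosome 18, 12333819 to 12583013 of GRCm38, plus strand) stood at 367, 297 and 276 CPM in the Glis2+/+ libraries and at 348, 318 and 404 CPM in the Glis2-/- libraries. The highest value was in Glis2-/- replicate 3 and the lowest in Glis2+/+ replicate 3, with Glis2+/+ replicate 1 inside the Glis2-/- range. Group means were 313 ± 47.6 CPM in Glis2+/+ and 356 ± 43.6 CPM in Glis2-/- cells (SD, n = 3 each), and the log2 fold change was 0.19 (95% interval -0.12 to 0.49, adjusted p = 0.941 in edgeR).

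Lamb3 (ENSMUSG00000026639, chromosome 1, 193207699 to 193343878, plus strand) stood at 138, 172 and 113 CPM in Glis2+/+ and at 178, 149 and 173 CPM in Glis2-/- libraries. Glis2+/+ replicate 2 lay among the Glis2-/- libraries and the other Glis2+/+ libraries below them. The log2 fold change was 0.24 (95% interval -0.12 to 0.60, adjusted p = 0.940 in edgeR). As ratios of Glis2-/- to Glis2+/+ levels, these intervals ran from 0.918 to 1.41 for Lama3 and from 0.923 to 1.52 for Lamb3.

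Lama1 encodes the alpha chain of the laminin first purified from a mouse tumour matrix, a form made in the embryo and, in the mammary gland, by myoepithelial cells. Lama1 (ENSMUSG00000032796, chromosome 17, 67697259 to 67822647, plus strand) stood at 488, 271 and 285 CPM in Glis2+/+ and at 438, 356 and 597 CPM in Glis2-/- libraries. Glis2+/+ replicates 2 and 3 lay below all Glis2-/- libraries, and Glis2+/+ replicate 1 lay above 2 of them. Its log2 fold change of 0.41 was the highest of the 9 (95% interval -0.17 to 1.00, adjusted p = 0.935 in edgeR). It was 0.72 without Glis2+/+ replicate 1 and 0.17 without Glis2-/- replicate 3, and between these values without each of the other libraries.

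Lama5, the alpha chain of most mature epithelial and many vascular basement membranes, was the steadiest member in CPM. Lama5 (ENSMUSG00000015647, chromosome 2, 180176373 to 180225859, minus strand) stood at 381, 424 and 421 CPM in Glis2+/+ and at 397, 420 and 377 CPM in Glis2-/- libraries. All 6 libraries lay within 1.13-fold of one another, with no order by genotype. The log2 fold change was -0.039, with a 95% interval of -0.24 to 0.17, which leaves out a difference of 0.58 in either direction. Lamb2, whose product pairs with Lama5 or Lama4 in vessels, kidney and nerve endings, was close behind. Lamb2 (ENSMUSG00000052911, chromosome 9, 108479736 to 108490530, plus strand) stood at 266, 234 and 224 CPM in Glis2+/+ and at 241, 249 and 227 CPM in Glis2-/- libraries, with a log2 fold change of -0.013 (95% interval -0.24 to 0.21, adjusted p = 0.996 in edgeR).

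Lama2 and Lama4 are the alpha chains of non-epithelial cells. LAMA2 belongs to the basement membranes of muscle and peripheral nerve, and its loss causes congenital muscular dystrophy, while LAMA4 is a short alpha chain of vessel walls, fat and nerve. Lama2 (ENSMUSG00000019899, chromosome 10, 26980036 to 27619758, minus strand) stood at 167, 45.6 and 153 CPM in Glis2+/+ and at 84.8, 51.5 and 121 CPM in Glis2-/- libraries. The lowest value of each genotype was in its replicate 2, and the Glis2-/- range lay inside the Glis2+/+ range. The log2 fold change was -0.51 with a 95% interval of -1.56 to 0.54 (adjusted p = 0.946 in edgeR), the widest interval of the 9.

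Lama4 (ENSMUSG00000019846, chromosome 10, 38965515 to 39110188, plus strand) stood at 246, 116 and 238 CPM in Glis2+/+ and at 157, 111 and 191.5 CPM in Glis2-/- libraries. Replicate 2 was again the lowest of each genotype. Its log2 fold change was -0.39 (95% interval -1.05 to 0.28, adjusted p = 0.941 in edgeR). The sizes of both differences turned on single libraries, none of which brought either gene past the threshold. Leaving out Glis2+/+ replicate 2 gave -0.90 for Lama2 and -0.66 for Lama4, their most negative values, while leaving out Glis2+/+ replicate 1 gave -0.23 for both and leaving out Glis2-/- replicate 2 gave -0.21 for Lama4.

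Lamb1 and Lamc1 encode the beta and gamma chains shared by most laminins, epithelial and stromal. Lamb1 (ENSMUSG00000002900, chromosome 12, 31265234 to 31329644, plus strand) stood at 577, 272 and 445 CPM in Glis2+/+ and at 445, 340 and 594 CPM in Glis2-/- libraries. Lamc1 (ENSMUSG00000026478, chromosome 1, 153218922 to 153332786, minus strand) stood at 1112, 622 and 853 CPM in Glis2+/+ and at 846, 698 and 1042 CPM in Glis2-/- libraries. Both genes had their lowest values in the replicate 2 libraries and their highest in Glis2+/+ replicate 1 and Glis2-/- replicate 3, so that the spread ran within the genotypes and not between them. Log2 fold changes were 0.091 for Lamb1 (95% interval -0.54 to 0.72) and -0.00086 for Lamc1 (95% interval -0.49 to 0.49), with adjusted p values of 0.985 and 1.00 in edgeR. Neither gene kept the sign of its difference when single libraries were left out, with ranges of -0.15 to 0.34 for Lamb1 and -0.19 to 0.21 for Lamc1. On the log2(TPM + 1) scale, where the median of all genes was -0.082, Lamb1 was at -0.094, close to that shift.

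**Figure D2:**
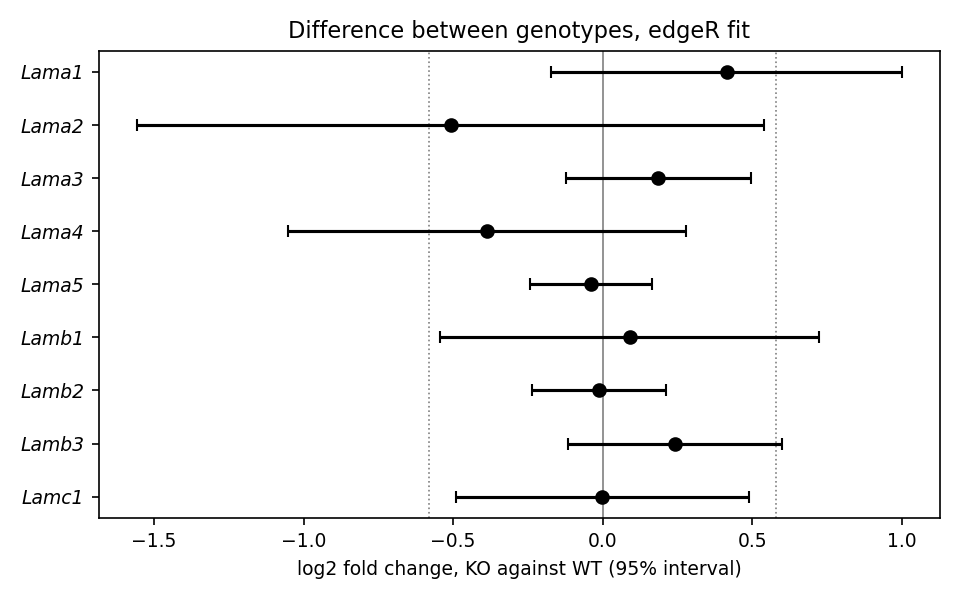
Log2 fold change of each laminin chain, Glis2-/- (KO) against Glis2+/+ (WT), from edgeR with its 95% interval. Dotted lines mark an absolute log2 fold change of 0.58, and every interval crosses 0, from the narrow ones of Lama5 (-0.24 to 0.17) and Lamb2 (-0.24 to 0.21) to that of Lama2 (-1.56 to 0.54).

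The larger pattern was the spread between libraries, which parted the 9 chains. The coefficient of variation over the 6 libraries was 5.27% for Lama5 and 6.43% for Lamb2, 14.1% for Lama3 and 16.6% for Lamb3, and between 22.0% and 49.5% for Lamc1, Lamb1, Lama1, Lama4 and Lama2 in that order. Among 2297 tested genes whose mean CPM lay in the range of the chains' group means, the median was 9.30%, with 5% of genes above 28.8%, a value that Lama1, Lama2 and Lama4 exceeded. Highest over lowest library was 1.13-fold for Lama5 and 3.67-fold for Lama2.

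Several chains moved together over the libraries. As a description over 6 libraries, in each of which all genes share 1 cell mixture and 1 depth, Pearson's r of log2 CPM was 0.991 between Lama2 and Lama4, 0.988 between Lamb1 and Lamc1 and 0.975 between Lama1 and Lama3. The profile of Lama5 ran against that of Lama1, with r = -0.956. Among 112 other genes, taken from the members and from lists of laminin-related and cell type marker genes, the one most like each chain was Col1a1 for Lama2 (r = 0.997), Nid2 for Lama4 (0.998), Col4a2 for Lamb1 (0.995), Lamb1 for Lamc1 (0.988), Col7a1 for Lama1 (0.982), Lama1 for Lama3 (0.975), Krt17 for Lamb3 (0.909), Sdc4 for Lama5 (0.941) and Prx for Lamb2 (0.657). Col1a1 is a fibrillar collagen of fibroblasts, Col4a2 a chain of basement membrane collagen, Col7a1 the collagen of anchoring fibrils under stratified epithelia and Krt17 a basal keratin.

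The summed markers of some cell types shared parts of their order over the libraries with some of the chains. The summed fibroblast markers stood at 7393, 2306 and 7768 CPM in Glis2+/+ and at 4290, 2605 and 5919 CPM in Glis2-/- libraries, and Lama2 followed the same order except that Glis2+/+ replicates 1 and 3 changed places. Endothelial markers summed to 799, 174 and 618 CPM in Glis2+/+ and to 513, 242 and 811 CPM in Glis2-/- libraries, although CD31 staining was part of the sort. Pecam1, the gene of CD31, had 160, 44.6 and 124 CPM in Glis2+/+ and 130, 72.1 and 198 CPM in Glis2-/- libraries. The part of these cells in the levels of Lama2, Lama4, Lamb1 and Lamc1 was not tested, and in bulk RNA fewer cells of a type and less RNA per cell cannot be told apart.

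Basal markers summed to 6011, 5540 and 4683 CPM in Glis2+/+ and to 6684, 6398 and 7696 CPM in Glis2-/- libraries, without overlap, and all 10 had higher fitted values in Glis2-/- cells, with a median log2 fold change of 0.42 and 0 past the thresholds. Of these 10, 6 had an unadjusted p under 0.05, against 5.32% of all genes, and 3 were higher in each Glis2-/- library than in any Glis2+/+ library, against 6.23%. Lama3 and Lamb3 had their lowest value in the library with the lowest basal sum, Glis2+/+ replicate 3, and Lama1 and Lama3 their highest in the library with the highest, Glis2-/- replicate 3. Lama1 had its lowest value of each genotype in replicate 2 (271 and 356 CPM), as Lama2, Lama4, Lamb1 and Lamc1 did, and its r with Lamb1 was 0.817. Luminal markers summed to 4152, 6949 and 5864 CPM in Glis2+/+ and to 6143, 7236 and 4086 CPM in Glis2-/- libraries. Lama5 had its 2 lowest values in the libraries with the 2 lowest luminal sums, Glis2+/+ replicate 1 and Glis2-/- replicate 3. Other lists had small or uneven sums, at 321 to 599 CPM for 6 pericyte, 58.5 to 326 for 6 adipocyte, 19.7 to 68.5 for 8 skeletal muscle, 250 to 432 for 6 Schwann cell and 17.9 to 70.3 for 6 leukocyte markers. Adipoq, Cfd and Lep of the adipocyte list and Myh2 of the muscle list were at 0 in at least 1 library. What share of any chain came from which cells was not tested.

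**Figure D3:**
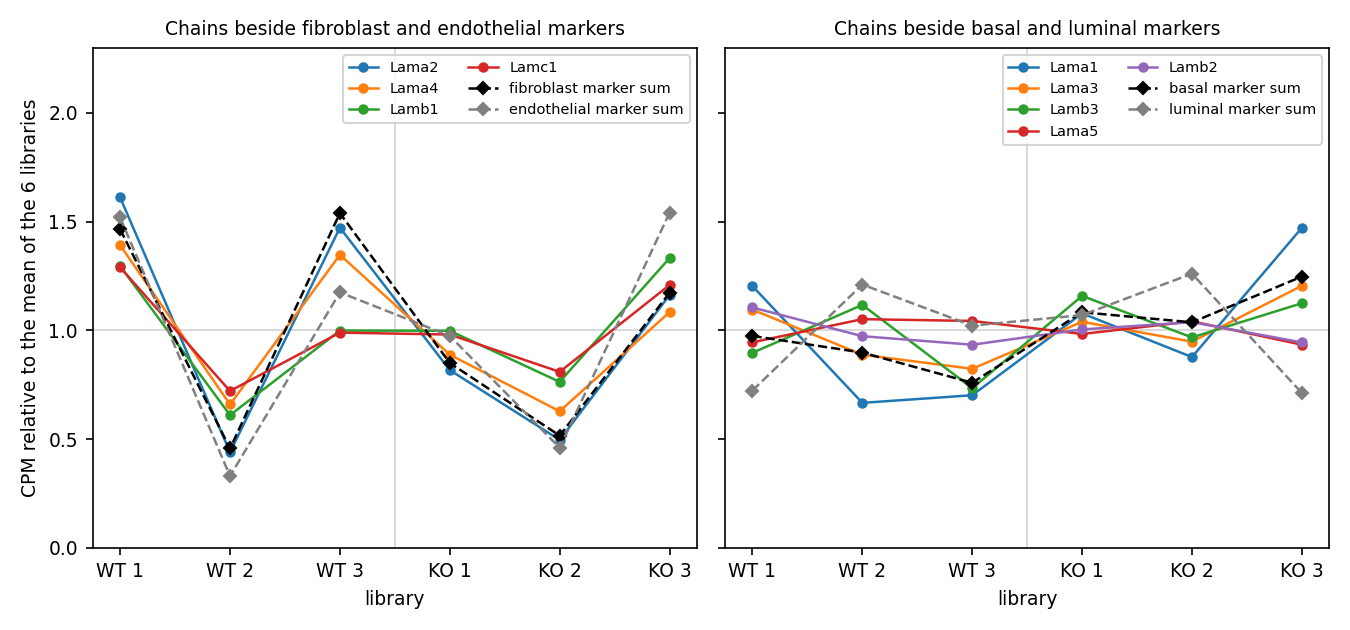
Level of each chain in the 6 libraries as CPM relative to its own mean, beside the summed markers of 2 cell types in each panel (dashed), where WT is Glis2+/+ and KO is Glis2-/- and the lines join libraries only to guide the eye. Lama2, Lama4, Lamb1 and Lamc1 are lowest in replicate 2 of each genotype, as is Lama1 in the other panel, together with the fibroblast sums (2306 and 2605 CPM) and endothelial sums (174 and 242 CPM), while Lama5 and Lamb2 stay close to 1.

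Promoters of the 2 chains steadiest in CPM and of 2 variable ones are shown, so that the bases at their RefSeq starts can be read beside their levels. RefSeq promoter windows of GRCm38.p6, from 250 bases before to 50 bases after the annotated start, were matched for 5 of the 9 genes, namely Lama2, Lama5, Lamb1, Lamb2 and Lamb3. The Lama2 and Lamb3 windows lay inside the gene spans given above (to 27619758 for Lama2), so the annotations place these starts differently. The windows are written 5′ to 3′ on the gene's strand in lower case, with capitals marking the GC box GGGCGG or its reverse complement CCGCCC.
Lama5 (chr2:180225810-180226109, minus strand): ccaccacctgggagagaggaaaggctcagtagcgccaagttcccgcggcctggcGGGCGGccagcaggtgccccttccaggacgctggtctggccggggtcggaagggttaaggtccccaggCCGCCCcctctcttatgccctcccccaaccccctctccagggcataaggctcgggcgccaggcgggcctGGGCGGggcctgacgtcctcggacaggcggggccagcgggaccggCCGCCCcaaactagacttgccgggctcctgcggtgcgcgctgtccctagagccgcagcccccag
Lamb2 (chr9:108479612-108479911, plus strand): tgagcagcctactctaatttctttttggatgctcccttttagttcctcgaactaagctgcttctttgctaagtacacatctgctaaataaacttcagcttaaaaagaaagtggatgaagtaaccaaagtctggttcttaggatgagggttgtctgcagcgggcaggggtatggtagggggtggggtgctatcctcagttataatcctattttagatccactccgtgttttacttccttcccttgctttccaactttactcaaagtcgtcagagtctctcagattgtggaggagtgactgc
Lama2 (chr10:27616893-27617192, minus strand): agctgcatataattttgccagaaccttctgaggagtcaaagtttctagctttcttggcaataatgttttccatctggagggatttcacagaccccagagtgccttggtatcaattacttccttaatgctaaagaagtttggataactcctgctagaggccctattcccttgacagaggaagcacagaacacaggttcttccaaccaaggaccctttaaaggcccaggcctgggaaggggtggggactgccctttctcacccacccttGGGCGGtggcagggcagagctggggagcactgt
Lamb1 (chr12:31265043-31265342, plus strand): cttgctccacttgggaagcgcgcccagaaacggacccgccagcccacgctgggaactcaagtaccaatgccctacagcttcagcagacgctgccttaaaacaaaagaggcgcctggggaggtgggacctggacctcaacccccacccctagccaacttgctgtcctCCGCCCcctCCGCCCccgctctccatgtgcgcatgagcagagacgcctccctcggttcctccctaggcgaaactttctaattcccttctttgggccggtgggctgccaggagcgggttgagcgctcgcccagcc

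The Lama5 window had a GC content of 72.7%, 24 CpG dinucleotides and 4 GC boxes, and the Lamb1 window 63.7%, 18 CpG and 2 GC boxes. Lama2, with 50.3%, 1 CpG and 1 GC box, and Lamb2, with 44.0%, 4 CpG and no GC box, lay below the median of 52.7% GC and 7 CpG over all 32851 windows. The 2 chains steadiest in CPM had the richest and the poorest window in GC of the 6 that matched. At least 1 GC box on either strand was held by 35.7% of all windows. The letters GACCACC, with which the binding consensus of GLI factors begins, and GACCCCC, with which that of GLIS factors begins, each read on both strands, occurred in 2.80% and 3.79% of all windows and in none of the 6 windows of the 5 genes, of which Lamb3 has 2. The absence says only that these letters are not in these windows.

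Levels of different chains were compared per length, as TPM, the share of transcripts a gene takes after division by length, within a library. TPM levels are read within a library here, since Gm23935 alone took 83.0% to 85.7% of each library's TPM. Lamc1 was the most abundant chain per length in every library, with 55.0, 34.0 and 50.9 TPM in Glis2+/+ and 45.3, 25.6 and 48.9 TPM in Glis2-/- libraries, followed by Lamb1 with 30.9, 14.6 and 32.3 TPM and 21.5, 20.03 and 27.8 TPM. No single alpha chain led: each of Lama1, Lama3, Lama4 and Lama5 held between 14.2% and 30.2% of the summed alpha chain TPM of a library, and Lama2 between 5.55% and 15.1%. Lama5 was the leading alpha chain in Glis2+/+ replicate 2, Lama4 in Glis2+/+ replicate 3, Lama3 in Glis2-/- replicate 1 and Glis2-/- replicate 2, and Lama1 in Glis2+/+ replicate 1 and Glis2-/- replicate 3. With the longest annotated transcript as the length, Lama1 led in all 3 Glis2-/- libraries, at 30.9%, 29.2% and 35.2%, and the leading chains of the Glis2+/+ libraries were the same.

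Of the 8 alpha and beta chain shares, 1 did not overlap between the genotypes, that of Lama1. On the CPM scale, which is another measure, 6.23% of all genes tested lay above and 5.5% below without overlap, and the count of 1 is near that background. Lama1 made up 24.9%, 19.6% and 17.2% of alpha chain TPM in the Glis2+/+ libraries and 26.9%, 25.5% and 30.2% in the Glis2-/- libraries, and each Glis2-/- share lay above each Glis2+/+ share. Means were 20.6% ± 3.91 in Glis2+/+ and 27.5% ± 2.37 in Glis2-/- cells (SD, n = 3 each), a description without a test, since shares of 5 chains depend on one another and Lama2 and Lama4 had their highest shares in Glis2+/+ replicates 1 and 3. The shares of the other alpha chains overlapped between the genotypes. Lama4 held 21.9% ± 4.396 in Glis2+/+ and 16.2% ± 1.82 in Glis2-/- cells, Lama3 23.7% ± 3.96 and 27.8% ± 1.61, Lama5 22.8% ± 6.66 and 21.1% ± 4.27, and Lama2 11.1% ± 4.96 and 7.31% ± 1.71.

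Among the beta chains, Lamb1 led in every library, with 52.9% ± 12.6 of the summed TPM in Glis2+/+ and 52.4% ± 4.78 in Glis2-/- cells. Its lowest share, 38.4%, was in Glis2+/+ replicate 2, where Lamb2 held 34.4% and Lamb3 27.2%, the highest shares of both. Lamb2 held 28.1% ± 5.54 and 27.1% ± 3.80, and Lamb3 19.0% ± 7.21 and 20.5% ± 2.12, in Glis2+/+ and Glis2-/- cells. These differences between genotypes were smaller than the spread within them.

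**Figure D4:**
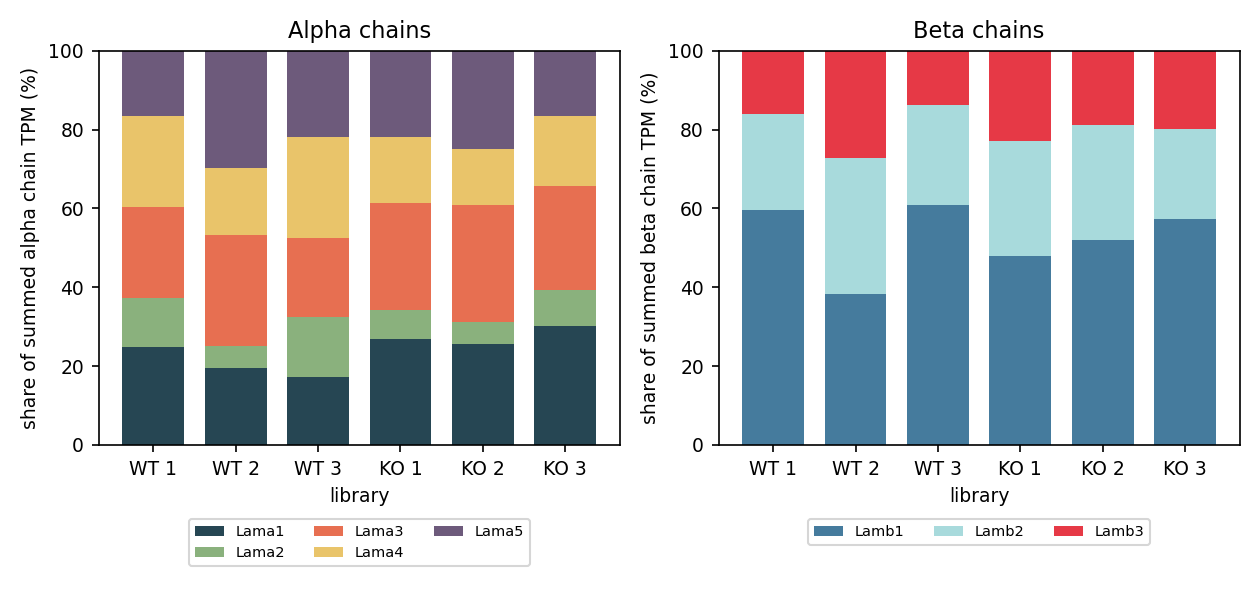
Share of each alpha chain (left) and beta chain (right) in the summed TPM of its family, 1 bar per library, with WT for Glis2+/+ and KO for Glis2-/-. The Lama1 segment is 17.2% to 24.9% in Glis2+/+ and 25.5% to 30.2% in Glis2-/- libraries, and Lamb1 is the tallest beta segment in every library.

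The deposited counts and TPM together give the mean transcript length that the quantification assigned to a gene, since TPM is the count per length. For 525 genes with 1 annotated transcript, this estimate lay between 95.9% and 103% of the annotated length (5th to 95th percentile) and varied between libraries by a median of 0.028%. Lama3 has 2 transcripts in the GENCODE M21 annotation, a long one of 10548 bases and a short one of 5551 bases, from separate starts, which encode alpha chains with a long and a short amino-terminal arm. The estimated mean length of Lama3 was 7990, 7574 and 7853 bases in Glis2+/+ and 7414, 7539 and 7544 bases in Glis2-/- libraries. Were these the only transcripts, the long form would make up 48.8%, 40.5% and 46.1% of Lama3 TPM in Glis2+/+ and 37.3%, 39.8% and 39.9% in Glis2-/- libraries. Both forms were thus assigned a large part of the reads in each library, and the shares of the long form were close in Glis2+/+ replicate 2 and Glis2-/- replicate 3. Of the 9 chains, 1, Lama3, had assigned lengths that did not overlap between the genotypes. In CPM, another measure, 6.23% of all genes tested lay above and 5.5% below without overlap. No such share was computed for assigned lengths, so the count cannot be weighed. No test was made, and transcripts that the study's later annotation may hold were not analysed here.

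**Figure D5:**
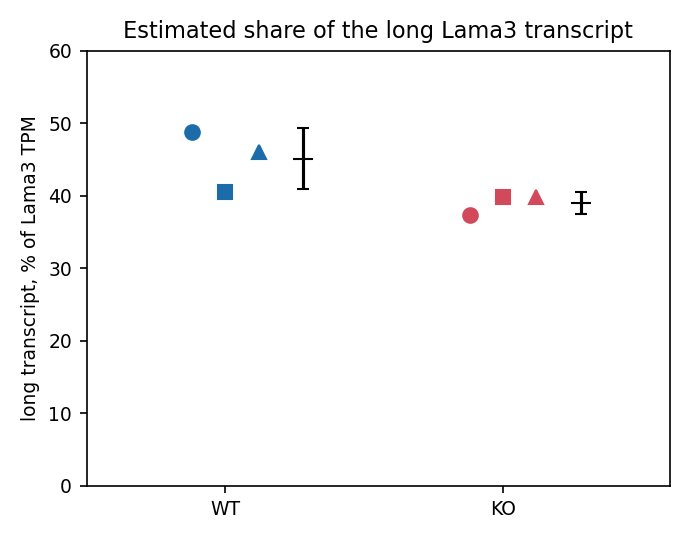
Estimated share of the long Lama3 transcript in the gene's TPM, 1 symbol per library in the order of replicates 1 to 3, with WT for Glis2+/+, KO for Glis2-/-, and the mean and SD of 3 beside them. Shares are 40.5% to 48.8% in Glis2+/+ and 37.3% to 39.9% in Glis2-/- libraries.

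For other chains the estimated length showed where TPM and counts part. Lama1 at 9429 to 9852 bases was close to its longest annotated transcript of 9526 bases, and Lama5 at 10159 to 11808 bases to its longest of 11388 bases. Lamc1 was assigned 4340 to 4497 bases in 5 libraries and 5407 bases in Glis2-/- replicate 2, against a longest transcript of 7622 bases, and Lamb1 3369 to 4848 bases against 5784. Reads of these 2 genes were thus partly given to shorter annotated transcripts, and their TPM values depend on that division.

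The other genes of the laminin system reported here were 37 in all, every one of which was tested. None passed both thresholds in edgeR, 4 had an unadjusted p under 0.05 (5.32% of all genes did), 21 had higher and 16 lower fitted values in Glis2-/- cells, and the median log2 fold change was 0.054. Genotypes did not overlap for 5 of the 37, 3 with Glis2-/- above and 2 below, where 6.23% and 5.5% of all genes tested did so, and these counts are near that background.

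Lamc3, a sparse gamma chain, had 142, 32 and 116 counts in Glis2+/+ and 224, 170 and 376 counts in Glis2-/- libraries. Each Glis2-/- library lay above each Glis2+/+ library, and the lowest count was in Glis2+/+ replicate 2. The fitted log2 difference was 1.39 (SE 0.52, adjusted p = 0.906 in edgeR).

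Of 12 laminin receptors and hemidesmosome genes, 7 had higher and 5 lower fitted values in Glis2-/- cells, 0 passed the thresholds, and the median was 0.065. Dst, which links hemidesmosomes to keratin filaments, stood at 2729, 2499 and 2914 CPM in Glis2+/+ and at 3187, 3171 and 3112 CPM in Glis2-/- libraries (log2 fold change 0.22, standard error 0.08, adjusted p = 0.906 in edgeR). Itgb4, the integrin beta chain of hemidesmosomes, went the other way without overlap, with 198, 215 and 235 CPM in Glis2+/+ and 190, 190 and 189 CPM in Glis2-/- libraries (log2 fold change -0.19, standard error 0.09, adjusted p = 0.910 in edgeR). Its partner Itga6, at 561 to 741 CPM in Glis2+/+ and 587 to 768 CPM in Glis2-/- libraries, and the linker Plec, at 1464 to 1602 and 1461 to 1523 CPM, overlapped. The genes of this adhesion complex thus did not share a direction.

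Of 14 genes whose products join laminin in the basement membrane, 9 had higher and 5 lower fitted values, 0 passed the thresholds in edgeR, and the median was 0.14. Ntn4, a netrin that binds laminin gamma chains and interferes with laminin networks, stood at 29.8, 40.6 and 26.6 CPM in Glis2+/+ and at 50.2, 80.8 and 53.8 CPM in Glis2-/- libraries (log2 fold change 0.93, standard error 0.22, adjusted p = 0.906 in edgeR and 0.0461 in DESeq2). It was the only gene of the 37 that DESeq2 called, against 0.165% of the genes DESeq2 tested. In edgeR without a filter on low counts its adjusted p was 0.0305 (log2 fold change 0.92), and the share of all genes called in that fit is not given here. Npnt, an integrin ligand of basement membranes, stood at 31.6, 28.5 and 37.0 CPM in Glis2+/+ and at 26.1, 24.1 and 23.1 CPM in Glis2-/- libraries (log2 fold change -0.41, standard error 0.15, adjusted p = 0.906 in edgeR).

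The most abundant partners varied between libraries as Lamb1 did. Col4a1, the main basement membrane collagen chain, stood at 3634, 1503 and 2824 CPM in Glis2+/+ and at 2940, 2188 and 3938 CPM in Glis2-/- libraries, and its partner Col4a2 at 1886, 845 and 1467 and at 1553, 1123 and 2062 CPM. Sparc, a collagen-binding matrix protein, stood at 1355, 613 and 1259 CPM and at 1007, 740 and 1336 CPM. Each had its lowest value of either genotype in replicate 2. Log2 fold changes were 0.19, 0.17 and -0.066 with standard errors of 0.31, 0.29 and 0.30. On the log2(TPM + 1) scale Col4a2 was at -0.048, above the median of -0.082 over all genes.

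The 10 genes reported here that build the sugar chain through which dystroglycan binds laminin had 4 higher and 6 lower fitted values, a median of -0.073, 0 past the thresholds and no gene without overlap. Pomgnt1, Pomt1 and B3galnt2, enzymes of this chain and the most abundant of the 10, had log2 fold changes of 0.078, -0.34 and -0.18 with standard errors of 0.13, 0.19 and 0.18, while on the log2(TPM + 1) scale, where the median of all genes was -0.082, Pomgnt1 was at -0.17 and B3galnt2 at 0.19. The summed CPM of the 10 genes lay between 189.6 and 219.4 in all libraries, a range of 1.16-fold, against 2.05-fold for the basement membrane partners.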

How the data were processed

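Stranded total RNA libraries were made from low amounts of RNA of sorted mammary cells, 3 Glis2+/+ and 3 Glis2-/-. The authors estimated reads per gene with Salmon 1.2.1 on mm10 (Ensembl annotation, genome as decoy) and summed them with tximport. The deposited counts are whole numbers without scaling, and the deposited log2 values are TPM after an offset of 1. Salmon divides shared reads between transcripts, so values of overlapping models are estimates. Groups were taken from the sample titles.

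Of 54418 identifiers, 54166 matched GENCODE M21 (GRCm38). Counts were scaled by TMM and tested over all genes by edgeR 4.0.16 in R 4.3.3 (filterByExpr, quasi-likelihood F test, Benjamini-Hochberg adjustment), and a gene was called if its adjusted p did not exceed 0.05 and its log2 fold change was 0.58 or more in size. Standard errors and 95% intervals came from the F statistic and its degrees of freedom. The function was tested on simulated data. No library was a copy of another (chi-square per degree of freedom at least 20.3). The study gives 3 mice for each genotype, so the spread is between mice, each with 1 library.

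The transcript length of a gene was its count divided by its TPM, scaled in each library by genes with 1 annotated transcript longer than 2000 bases and more than 200 counts. Alternatives were DESeq2 1.42.0 with apeglm 1.24.0, DESeq2 size factors, 2 other count filters, no fold threshold, limma 3.58.1 on log2 TPM with offsets of 1 and 0.1 (genes of at least 0.1 TPM in as many libraries as the smaller group), a replicate block and leaving out each library. Leaving out replicate 2 of both genotypes was added after seeing the data. Named genes are the 9 members, Glis2 and, of each pathway list, those called, up to 4 without overlap and with the largest change, and the 3 most abundant. Other marker genes are named as markers, and Gm23935 was named after its values were seen. Of the pathway lists, 3 genes are not reported here and were left out of the list counts. The members and lists were chosen with earlier results of these data known. A same-strand gene overlaps 5 of the members, each with at most 247 counts.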

Additional observations from a re-analysis of the deposited data

How the results depend on the processing

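The count of laminin chains past the thresholds was 0 in all 15 alternatives, and the smallest adjusted p of any chain in them was 0.740. The 37 pathway genes gave 1 call, Ntn4, with DESeq2 and apeglm (log2 fold change 0.78), where 0.165% of all genes tested were called. They gave 0 with a replicate block and without each library in turn or replicate 2 of both genotypes. Without a filter on low counts Ntn4 had an adjusted p of 0.0305 in edgeR. The replicate block gave 0 laminin chains, and correlations of same-numbered deviations were -0.022, 0.173 and 0.023. No such values were taken for samples of different number, so these cannot show whether same-numbered samples had more in common than a number. The labels name no pairing. Of the 9 chains, 6 kept their direction in all 14 alternatives run for single genes. Lamb1 was -0.094 with both TPM offsets in limma, Lamc1 was 0.021 with the replicate block, and Lamb2 lay between -0.062 and 0.044 without 1 library and at -0.072 without replicate 2 of both genotypes. The median of all genes was -0.082 with log2(TPM + 1) and -0.15 with log2(TPM + 0.1). Lama5, the steadiest chain in CPM, was at -0.229 and -0.253 on these scales. Among other genes, log2(TPM + 1) and log2(TPM + 0.1) gave -0.117 and -0.120 for Itga6, -0.0479 and -0.0483 for Col4a2, -0.169 and -0.187 for Pomgnt1 and 0.194 and 0.264 for B3galnt2. Without 1 library, log2 fold changes ranged from -0.15 to 0.34 for Lamb1, -0.19 to 0.21 for Lamc1, -0.060 to 0.20 for Itga6, -0.094 to 0.47 for Col4a1, -0.085 to 0.43 for Col4a2, -0.35 to 0.12 for Sparc and -0.053 to 0.17 for Pomgnt1. The same ranges were 0.071 to 0.30 for Lama3, 0.11 to 0.41 for Lamb3, -0.55 to -0.24 for Pomt1 and -0.28 to -0.060 for B3galnt2. Lamb3 was at 0.48 without replicate 2 of both genotypes. What caused these differences was not tested. With the longest annotated transcript in place of the assigned length, the Lama1 share was 24.4% in Glis2+/+ and 31.8% in Glis2-/- cells and that of Lama3 20.4% and 22.4%.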

Other observations

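The TPM ratio of Lamb3 to Lama3, the beta and alpha chains of the hemidesmosomal laminin, was 0.814, 1.10 and 0.802 in Glis2+/+ and 0.936, 0.866 and 0.881 in Glis2-/- libraries, and the Glis2-/- values lay inside the Glis2+/+ range. The TPM ratio of Lamc1 to Lamb1 was above 1 in every library, at 1.78, 2.33 and 1.58 in Glis2+/+ and 2.10, 1.28 and 1.76 in Glis2-/- libraries, with its lowest value in Glis2-/- replicate 2, where Lamc1 was assigned its longest mean transcript length (5407 bases) and Lamb1 its shortest (3369 bases).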
